A study of Mus musculus with 7 samples.

Results

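The small leucine-rich proteoglycans are secreted matrix proteins that share a central run of leucine-rich repeats. Of the 21892 gene symbols in the deposited table, 9 were taken by name for this account: Dcn (decorin), Lum (lumican), Bgn (biglycan), Fmod (fibromodulin), Ogn (osteoglycin, also called mimecan), Aspn (asporin), Omd (osteomodulin), Prelp and Podn (podocan). All 9 were present and listed above 0 in each of 7 RNA libraries. The tumors carry exon 19 deletions of Egfr and were grown by subcutaneous passage in C57BL/6 mice, and the labels give the tissue as lung tumor. One library received vehicle and was taken at day 3. 2 libraries came from tumors given gefitinib, an inhibitor of the EGFR tyrosine kinase, for 3 or 14 days. The other 4 were taken at day 21, after 14 days of gefitinib followed by 7 days of vehicle, of DC101 (an antibody to VEGFR2, the product of Kdr), of 4H2 (an antibody to PD-1) or of DC101 and 4H2 together. All 4 day 21 groups therefore share the earlier gefitinib. The vehicle titles were followed, although the treatment fields of both vehicle libraries say that no treatment was given. No vehicle library was taken at day 14 and no library at day 21 under continued gefitinib, so days and treatment cannot be told apart in pairs of libraries from different days; the day is shared by the 2 day 3 libraries and by the 4 of day 21. The number of animals behind a library is not stated in the labels.

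These proteoglycans are made mainly by fibroblasts and related mesenchymal cells, bind fibrillar collagen and set the spacing and width of its fibrils. Several also hold growth factors such as TGF-beta in the matrix, and soluble biglycan and decorin are known ligands of innate receptors and receptor tyrosine kinases. Decorin is known to bind both EGFR and VEGFR2, which are targets of drugs used in this series. In tumors the family is best known from the stroma around the cancer cells.

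The values are TPM (transcripts scaled to a fixed total per library), which are corrected for transcript length and can be compared between genes. There was 1 library per group, so the differences below are between 2 libraries, have no replicate spread and carry no test; sequencing depth is unknown. The 12 lung epithelial marker genes, none of them listed at 0 in any library, summed to between 10251 and 20728 TPM in the 5 libraries without 4H2, to 223.3 with 4H2 and to 919.1 with DC101 and 4H2. The 12 skeletal muscle genes, again none at 0, summed to between 288.4 and 3408 TPM in the first 4 libraries, to 15892 with DC101, 74241 with 4H2 and 73602 with both antibodies. In bulk tissue, fewer cells of a type and less RNA per cell cannot be told apart.

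The family was low in the day 3 vehicle library and high after 3 days of gefitinib. 7 of the 9 genes had their lowest value in vehicle at day 3, the exceptions being Fmod (lowest with the combination) and Omd (lowest in vehicle at day 21). 7 of the 9 had their highest value at day 3 of gefitinib, the exceptions being Dcn (highest with the combination) and Prelp (highest at day 14 of gefitinib). How many of all genes had their lowest or highest value in these libraries was not counted. Such counts, here and below, therefore have no background beside them. The summed level of the 9 was 704.1 TPM in vehicle at day 3, 4158 and 2615 at days 3 and 14 of gefitinib, 1552 in vehicle at day 21, 1112 with DC101, 1360 with 4H2 and 1541 with both antibodies. Bgn supplied most of this sum, from 79.6% in vehicle at day 21 down to 61.1% with the combination. Dcn supplied from 6.55% to 22.6% in the same 2 libraries, so the mixture differed where the sums, 1552 and 1541 TPM, were nearly equal.

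**Figure D1:**
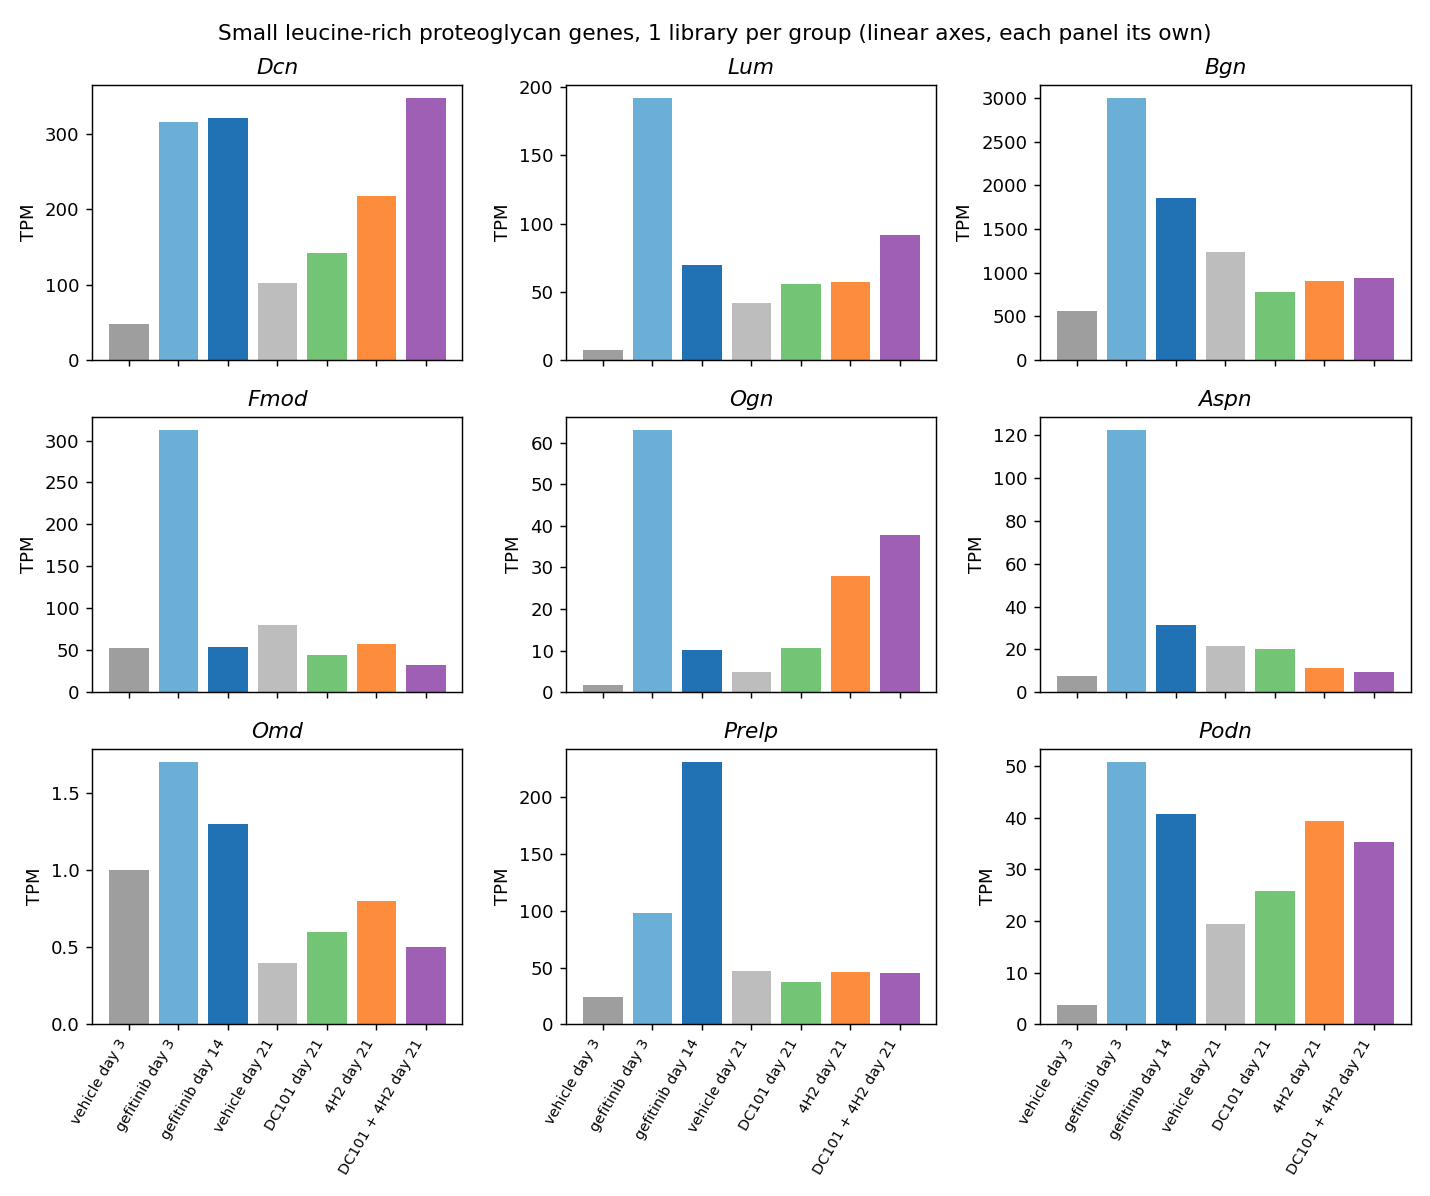
TPM (vertical axis, linear from 0, separate for each gene) of the 9 proteoglycan genes in the 7 libraries (horizontal axis), 1 bar per library and no error bars because each group has 1 library. Bgn, Lum, Fmod, Ogn, Aspn, Omd and Podn are highest at day 3 of gefitinib, Prelp at day 14 of gefitinib (231 TPM) and Dcn with the antibody combination (347.7 TPM).

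Decorin and biglycan form the first class of the family with asporin and carry chondroitin or dermatan sulfate chains. Their genes stood on opposite sides of vehicle in the antibody libraries of day 21. Dcn, whose product limits the lateral growth of collagen fibrils, was at 48.2 TPM in vehicle at day 3, 315.8 and 321.6 at days 3 and 14 of gefitinib, 101.6 in vehicle at day 21, 142.4 with DC101, 217.6 with 4H2 and 347.7 with both antibodies. The 3 antibody libraries all lay above vehicle at day 21, and the combination was the highest of the 7. Bgn, whose product binds collagen and, when soluble, Toll-like receptors, was at 557.1, 3001.2, 1855.9, 1235.2, 775.8, 902.8 and 941.5 TPM in that order. It was the most abundant of the 9 in every library, and the 3 antibody libraries all lay below vehicle at day 21, each by less than 2-fold. The Bgn to Dcn ratio was 11.6 in vehicle at day 3, 9.5 and 5.77 at days 3 and 14 of gefitinib, 12.2 in vehicle at day 21, 5.45 with DC101, 4.15 with 4H2 and 2.71 with both antibodies. It was thus about the same in the 2 vehicle libraries and lowest with both antibodies. Aspn, a relative of decorin that lacks the usual chain attachment site and binds TGF-beta, was at 7.7, 122.5, 31.3, 21.8, 20.1, 11.2 and 9.6 TPM. Its day 3 gefitinib value stood apart from the other 6, and both 4H2 libraries were close to the day 3 vehicle library.

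The second class, which carries keratan sulfate chains or none, held 4 of the genes. Lum, best known for ordering the collagen of the cornea, was at 7.7 TPM in vehicle at day 3, 191.9 and 69.8 at days 3 and 14 of gefitinib, 41.7 in vehicle at day 21, 55.8 with DC101, 57.3 with 4H2 and 91.8 with both antibodies. Fmod, which binds collagen and guides its cross-linking in tendon, was at 52.7, 312.4, 53.8, 79.9, 43.7, 56.9 and 32.2 TPM. Only the day 3 gefitinib library was above 79.9 TPM, and at day 14 of gefitinib Fmod was back beside its vehicle value. Prelp, which links basement membrane heparan sulfate to collagen, was at 24.3, 98.3, 231, 46.7, 37.3, 46.4 and 44.8 TPM. It was the one gene of the 8 with a mean of at least 1 TPM that was over 2-fold higher at day 14 than at day 3 of gefitinib, and its 4 values at day 21 lay between 37.3 and 46.7 TPM. Omd, a bone matrix member of the family, was between 0.4 and 1.7 TPM with a mean of 0.9 and stayed below the minimum mean of 1 TPM set for the comparisons. At that level the rounding of the deposited values to 1 decimal alone can shift its log2 difference by up to 0.10, against 0.04 for the other 8.

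Osteoglycin and podocan belong to neither the first nor the second class. Ogn, a collagen-binding keratan sulfate protein first known from bone, was at 1.6 TPM in vehicle at day 3, 63 and 10.1 at days 3 and 14 of gefitinib, 4.8 in vehicle at day 21, 10.7 with DC101, 27.9 with 4H2 and 37.9 with both antibodies. It had the widest span of the 9, 39.4-fold between its lowest and highest library, and its 2 libraries with 4H2 were the highest after day 3 of gefitinib. Podn, whose product is found in vessel walls and binds collagen, was at 3.8, 50.7, 40.6, 19.4, 25.7, 39.4 and 35.2 TPM. Its values at day 14 of gefitinib, with 4H2 and with the combination lay close together, and only vehicle at day 3 was below 19.4 TPM. The narrowest span among the 8 was that of Bgn, at 5.39-fold, and the other 6 lay between 7.21-fold (Dcn) and 24.9-fold (Lum).

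10 further genes of the wider family were looked up by name. Tsku, which encodes the signalling antagonist tsukushi, was at 12.1, 41.8, 52.1, 39.8, 26.5, 13.3 and 13.9 TPM in the order used above. Ecm2, the neighbour of Aspn, was at 0.8, 14.4, 6.5, 2.7, 2.4, 4.5 and 6.3 TPM, with its highest value at day 3 of gefitinib as for Aspn and Ogn. Podnl1, the closest relative of Podn, stayed between 1 and 6.7 TPM. Chad and Chadl, cartilage members, did not exceed 2.2 and 2.9 TPM, Epyc, Optc and Nyx did not exceed 0.4, 0.2 and 0.1 TPM, and Kera and Nepn were listed at 0 in all 7 libraries.

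Differences were taken as log2((TPM + 1) / (TPM + 1)) between 2 libraries for the 13997 genes with a mean of at least 1 TPM, and counted when they reached 2-fold on that scale. Each of the 8 proteoglycan genes that met the minimum was listed at 1.6 TPM or more in every library, so none met it through 1 high group alone. At day 3 of gefitinib against vehicle at day 3, 8 of 8 were at least 2-fold higher, where 20.8% of all genes were higher and 14.4% lower. The 8 had a median of 3.06, against -0.09 over all genes, from Prelp at 1.97 to Ogn at 4.62, Lum at 4.47 and Aspn at 3.83. Omd, outside the count, was at 0.43. At day 14 of gefitinib against the same vehicle library, 7 of 8 were higher and Fmod was at 0.03 (all genes: 22.7% higher, 12.7% lower). The median was 2.40, with Prelp at 3.20, Podn at 3.12, Lum at 3.02 and Dcn at 2.71 as the highest.

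Between days 3 and 14 of gefitinib the family split. This pair shares the day 3 gefitinib library with the first comparison above, in which Ogn (4.62), Lum (4.47) and Aspn (3.83) were highest. The 2 results are therefore not independent. Ogn (-2.53), Fmod (-2.52), Aspn (-1.93) and Lum (-1.45) were at least 2-fold lower at day 14, Prelp was higher at 1.22, and Dcn (0.03), Podn (-0.31) and Bgn (-0.69) lay within 2-fold. That is 4 of 8 lower, where 2.73% of all genes were lower, and 1 of 8 higher, where 4.93% were. The median of the 8 was -1.07, beside -1.02 for 12 fibrillar and associated collagen genes and -0.23 for 19 fibroblast identity genes.

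7 days after the end of gefitinib, 3 of 8 genes were at least 2-fold lower than at day 14 and none higher, where 7.89% of all genes were lower and 7.62% higher. These were Prelp (-2.28), Dcn (-1.65) and Podn (-1.03). With a pseudocount of 5 Podn was at -0.90, which left 2 of 8. Fmod went the other way at 0.56, and Aspn (-0.50), Bgn (-0.59), Lum (-0.73) and Ogn (-0.94) were within 2-fold. Ogn passed it with a pseudocount of 0.1 (-1.06) and under the rescaling without muscle and abundant genes (-1.02), which made 4 of 8 lower. This pair shares the day 14 library with the one before it. Compared with vehicle at day 3, vehicle at day 21 was at least 2-fold higher for 6 of 8, with Prelp (0.91) and Fmod (0.59) within 2-fold, and none was lower; 15.3% of all genes were higher and 3.11% lower in that pair. Lum (2.30) and Podn (2.09) were the furthest apart. Ogn, at 1.16, was at 0.57 with a pseudocount of 5, which left 5 of 8 higher. Past gefitinib and days in the animal cannot be told apart in this pair, since both differ.

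**Figure D2:**
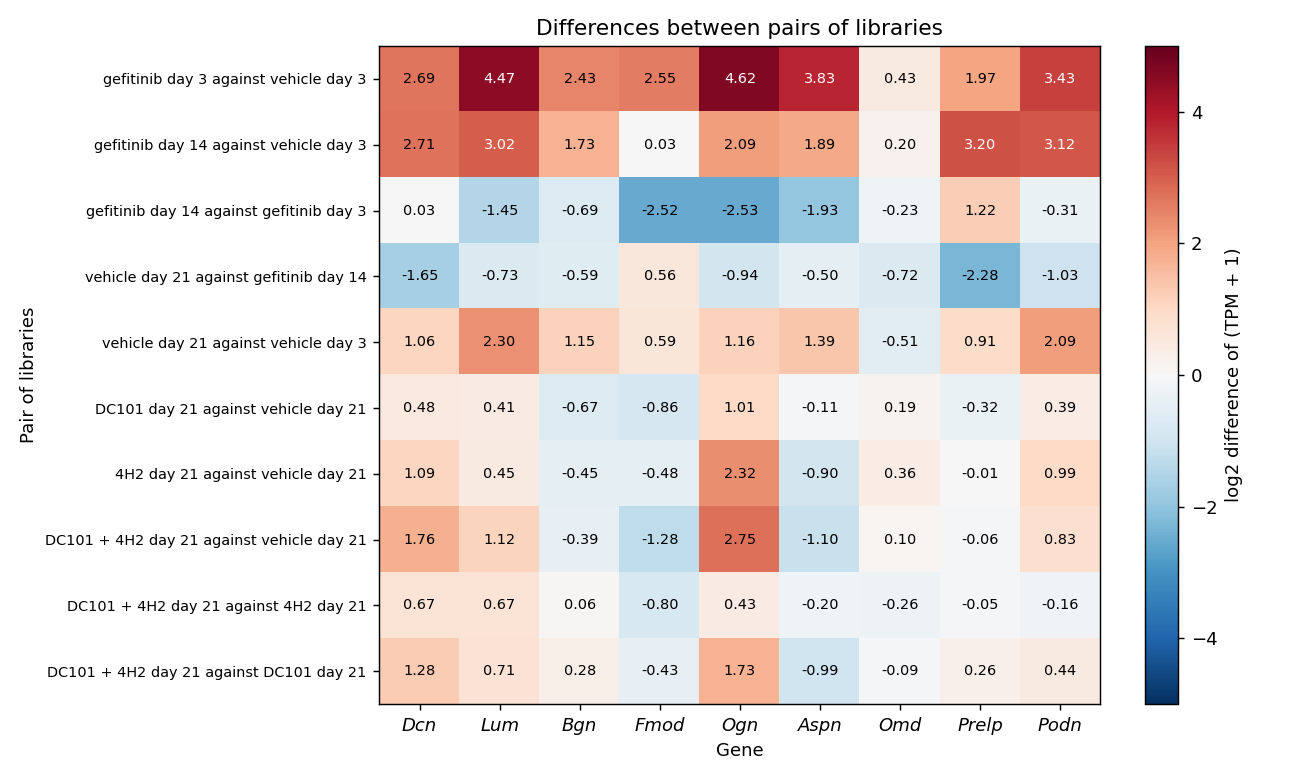
Log2 difference of (TPM + 1) for the 9 proteoglycan genes (columns) in 10 pairs of libraries (rows, first library against second); red is higher and blue lower in the first library, and the value is printed in each cell. The day 14 against day 3 row of gefitinib runs from -2.53 (Ogn) to 1.22 (Prelp), and the 3 antibody rows against vehicle hold both positive and negative values.

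At day 21 the antibody libraries did not differ from vehicle in one direction across the family. Against the vehicle library, which all 3 antibody comparisons share, Dcn, Lum, Ogn and Podn were higher in each of them, and Bgn, Fmod, Aspn and Prelp were lower. How many of all genes keep 1 direction in all 3 was not counted. Some of the lower values were small. Bgn was at -0.45 with 4H2 and -0.39 with the combination, where the median over all genes was -0.21 and -0.17. Fmod was at -0.48 with 4H2, and Aspn at -0.11 with DC101, where the median over all genes was -0.05. For Prelp the differences were small and changed sign with the scaling, from -0.01 to 0.24 with 4H2 and from -0.06 to 0.18 with the combination under median-of-ratios scaling. With DC101, 1 of 8 was at least 2-fold higher, Ogn at 1.01, and none was lower (all genes: 3.12% higher, 1.11% lower); the median was 0.14. Ogn is only just past 2-fold here and was not counted with a pseudocount of 5. Below vehicle in this library, Fmod was at -0.86 and Bgn at -0.67, near but short of 2-fold.

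With 4H2, Ogn (2.32) and Dcn (1.09) were at least 2-fold higher and none of the 8 was lower, where 10.9% of all genes were higher and 20% lower. Aspn was at -0.90. Podn, at 0.99, passed 2-fold under 3 alternatives, at 1.02 with a pseudocount of 0.1, 1.23 under median-of-ratios scaling and 1.13 under the rescaling without muscle and abundant genes, which made 3 of 8 higher in place of 2. With DC101 and 4H2 together, Ogn (2.75), Dcn (1.76) and Lum (1.12) were higher, and Fmod (-1.28) and Aspn (-1.10) lower, where 11.7% of all genes were higher and 17% lower. Under median-of-ratios scaling Aspn was at -0.88, which left 1 of 8 lower in place of 2, and Podn, at 0.83 as deposited, was at 1.06, which made 4 of 8 higher in place of 3. That scaling moved the higher share of all calls from 35.3% to 48.9% with 4H2 and from 40.8% to 54.6% with the combination, so the shares of all genes in these pairs depend on it.

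Between the combination and 4H2 alone no gene of the 8 was 2-fold apart, where 4.94% of all genes were higher and 0.464% lower; the largest differences were Fmod at -0.80 and Dcn and Lum at 0.67 each. Against DC101 alone, the combination was at least 2-fold higher in Ogn (1.73) and Dcn (1.28) and lower in none, where 11.1% of all genes were higher and 14.3% lower (43.8% of calls higher, and 55.9% under median-of-ratios scaling). Aspn was at -0.99 in that pair and passed 2-fold with a pseudocount of 0.1, at -1.06.

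7 of the 9 genes lie within a megabase of another gene of the family, in 3 clusters, which allows neighbours to be set side by side. Coordinates are RefSeq positions in GRCm38.p6. Dcn (chromosome 10, 97479500 to 97518163) and Lum (97565501 to 97572703) are followed on the same chromosome by Kera and Epyc. Aspn (chromosome 13, 49544443 to 49567565), Omd (49582462 to 49592612) and Ogn (49608015 to 49624501) are preceded by Ecm2. Prelp (chromosome 1, 133910304 to 133930102, minus strand) lies 107.2 kilobases from Fmod (134037254 to 134048280, plus strand), with Optc beyond Prelp. Bgn (chromosome X, 73483601 to 73495936) and Podn (chromosome 4, 108014793 to 108031954) have no such neighbour. All 9 are protein-coding genes.

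The neighbours did not share 1 pattern over the libraries. Aspn exceeded Ogn by 4.81 times in vehicle at day 3, 1.94 and 3.10 times at days 3 and 14 of gefitinib, 4.54 times in vehicle at day 21 and 1.88 times with DC101. In the 2 libraries given 4H2 the order was turned, with Aspn to Ogn ratios of 0.401 and 0.253. Omd, which lies between them, was not above 1.7 TPM in any library. The Fmod to Prelp ratio was 2.17 in vehicle at day 3, 3.18 at day 3 of gefitinib, 0.233 at day 14, 1.71 in vehicle at day 21, 1.17 with DC101, 1.23 with 4H2 and 0.719 with both antibodies. Day 14 of gefitinib stood apart in this pair. Dcn exceeded Lum in every library, by between 1.65 times at day 3 of gefitinib and 6.26 times in vehicle at day 3.

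**Figure D3:**
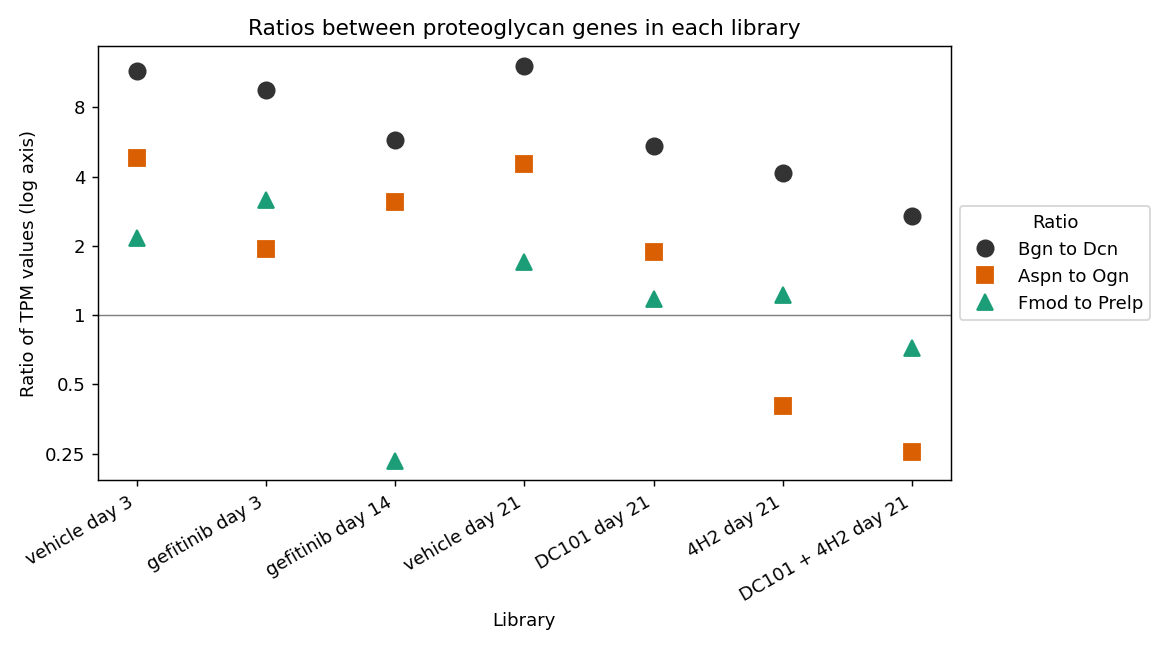
Ratio of TPM values (vertical axis, log scale, a grey line at 1) of Bgn to Dcn, Aspn to Ogn and Fmod to Prelp in each of the 7 libraries (horizontal axis), 1 point per library. The Aspn to Ogn ratio is below 1 in both libraries with 4H2 (0.401 and 0.253), the Fmod to Prelp ratio at day 14 of gefitinib (0.233) and with the combination (0.719).

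Because these 2 pairs of neighbours part, the 250 bases before their start sites are shown, as given for RefSeq genes in GRCm38.p6. A window was matched for 7 of the 9 genes, all but Dcn and Lum. The bases after the RefSeq start site of Ogn were found in no GENCODE M21 transcript of it, unlike those of Fmod, Prelp and Aspn. Capitals mark matches, on either strand, to TATAAA (the TATA box) or CAGAC (a SMAD box); TGANTCA (AP-1) and GGGCGG (Sp1) were also searched and are in none of these 4 windows. The Fmod window is chr1:134037004-134037253 (plus strand), that of Prelp chr1:133921402-133921651 (minus strand, inside the span of the gene, at a start site there), that of Aspn chr13:49544193-49544442 (plus strand) and that of Ogn chr13:49607765-49608014 (plus strand).
Fmod: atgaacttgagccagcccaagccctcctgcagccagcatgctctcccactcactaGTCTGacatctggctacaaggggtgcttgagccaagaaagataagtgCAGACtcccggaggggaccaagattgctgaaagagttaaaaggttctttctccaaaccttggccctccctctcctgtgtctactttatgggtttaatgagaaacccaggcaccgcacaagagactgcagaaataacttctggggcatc
Prelp: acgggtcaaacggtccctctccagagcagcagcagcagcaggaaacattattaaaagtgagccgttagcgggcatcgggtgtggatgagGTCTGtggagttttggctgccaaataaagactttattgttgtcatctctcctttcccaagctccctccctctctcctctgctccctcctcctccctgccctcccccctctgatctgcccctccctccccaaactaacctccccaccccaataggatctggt
Aspn: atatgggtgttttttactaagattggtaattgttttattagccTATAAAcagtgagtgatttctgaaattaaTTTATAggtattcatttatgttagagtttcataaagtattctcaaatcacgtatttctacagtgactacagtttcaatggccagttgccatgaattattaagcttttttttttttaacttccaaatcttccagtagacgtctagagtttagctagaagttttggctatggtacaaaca
Ogn: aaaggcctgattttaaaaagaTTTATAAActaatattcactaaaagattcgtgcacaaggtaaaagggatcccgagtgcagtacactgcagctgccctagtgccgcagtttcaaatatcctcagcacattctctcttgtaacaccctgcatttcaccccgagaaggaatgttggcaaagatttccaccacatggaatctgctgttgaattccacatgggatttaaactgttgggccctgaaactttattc

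Fmod has 2 CAGAC matches, 195 and 148 bases before its start site, and Prelp 1, at 161 bases. That motif is in 42.2% of the 32851 windows in the table. Aspn has 2 TATAAA matches, at 207 and 178 bases, and Ogn 2 that overlap on opposite strands, at 229 and 227 bases, a motif found in 12.4% of all windows. Within each pair the windows hold the same kind of match, but CAGAC is common among all windows. TATAAA holds no G or C, and the Aspn and Ogn windows were below the median share of these bases. Whether any match is used was not tested, and Dcn and Lum had no window to set beside these. The share of G and C was 30% for Aspn, 42% for Ogn, 51.2% for Fmod and 55.6% for Prelp, against a median of 52.4% over all windows. Of the windows not shown, those of Bgn (64.4%) and Podn (78% and 64% at 2 start sites) were richer in G and C, and GGGCGG was in the Bgn window and in 1 of the Podn windows (32.7% of all windows).

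Overlapping genes may bear on a few of these values, because the sources used here do not state the strand setting or annotation of the counting. Whether they do was not tested. Aspn, Omd and Ogn all lie inside Cenpp, which runs on the opposite strand and was between 0.6 and 2.5 TPM. In the GENCODE M21 annotation of the same genome, Podn also overlaps Scp2 on the same strand, which was between 47.4 and 89.6 TPM. Scp2 was highest with the combination, whereas Podn was highest at day 3 of gefitinib. An antisense gene, Gm15851, overlaps Prelp and has no value here.

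How alike 2 profiles were was measured as the root-mean-square distance between their log2(TPM + 1) values over the 7 libraries after each gene's own mean was subtracted; 0 means the same shape and size of variation. Among the 36 pairs of the 9 genes, Dcn and Podn (0.39) and Lum and Podn (0.41) were closest, and Ogn and Prelp (1.47) furthest apart. Dcn and Lum were at 0.57, Fmod and Prelp at 1.13, and Aspn and Ogn at 1.40. The neighbours on chromosomes 1 and 13 were thus less alike than those on chromosome 10. All profiles rest on the same 7 libraries, so these distances are a description.

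Among 9828 other genes with a mean of at least 10 TPM, the profile nearest to the median of the 8 proteoglycan genes was that of Ccdc80, a matrix protein gene (0.14), followed by Aebp1 (0.16), Siglec1, a macrophage receptor gene (0.17), Col3a1 (0.18) and the elastin gene Eln (0.19). The single genes had different company. Nearest to Dcn were Mylip, Gsn, Ctsf, Add3 and Ebf1 (0.20 to 0.23). Nearest to Bgn were the integrin gene Itgb3, the endothelial gene Cd93, Sparcl1, Pxdn and the vascular laminin gene Lama4 (0.14 to 0.18). Nearest to Lum were Mfap4, an elastic fibre gene (0.25), Rab7b, Eln, Clec4a3 and Cd300ld5 (up to 0.41). Aspn was nearest to C1qtnf3 (0.27), Clec11a, Sfrp2, Postn and P4ha3, the last of which encodes a subunit of collagen prolyl hydroxylase. Fmod was nearest to the pericyte gene Rgs5 (0.35), then Gpihbp1, Snai1, Serpinf1 and Ppic. Ogn was nearest to Itm2a (0.36), Fmo1, Igf1, the estrogen receptor gene Esr1 and the lipoprotein lipase gene Lpl (0.55). Prelp was nearest to the mast cell tryptase gene Tpsb2 (0.21), then Adgrd1, Adgra2, Abhd15 and Osmr. Podn was nearest to Rab7b (0.09), Slfn5, the myeloid gene Lyz2, Pid1 and Plekho2. For Omd the 5 nearest were Dnajb9, Tmem150a, Lamp1, Galc and Cry1, and at values near 1 TPM the pseudocount flattens its profile.

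The level of the family was set beside that of other fibroblast genes, with which it largely moved, though not with these alone. The 20 fibroblast identity genes, of which Tcf21 was listed at 0 in every library, summed to 2733 TPM in vehicle at day 3, 25872 and 14099 at days 3 and 14 of gefitinib, 9703 in vehicle at day 21, 8088 with DC101, 10265 with 4H2 and 10652 with both antibodies. Most of each sum came from Col1a1, Col1a2 and Col3a1, which are also among the collagen genes. These were at 943.5, 527.3 and 706.2 TPM in vehicle at day 3. They were at 10261.8, 6547.1 and 5524.5 TPM at day 3 of gefitinib, and at 5500.7, 3271.9 and 2372.7 TPM at day 14. At day 3 of gefitinib 19 of 19 fibroblast identity genes compared were at least 2-fold higher than in vehicle, beside 20.8% of all genes. None was lower, beside 14.4% of all genes. Their median was 2.72, beside 3.06 for the 8 proteoglycan genes. In that pair the median was also 3.12 for macrophage and monocyte, 3.08 for T cell and 2.89 for skeletal muscle genes. It was -1.65 for epithelial, -1.06 for lung epithelial and -0.69 for skin and hair genes. Over the 10 pairs of libraries the proteoglycan median minus the fibroblast median lay between -0.84 (day 14 against day 3 of gefitinib) and 0.38 (the combination against vehicle at day 21). Per 100 TPM of Col1a1, the main fibrillar collagen gene, the summed proteoglycans were at 74.6 TPM in vehicle at day 3, 40.5 and 47.5 at days 3 and 14 of gefitinib, 40.1 in vehicle at day 21, 35.6 with DC101, 31.6 with 4H2 and 37.1 with both antibodies. The day 3 vehicle library stood apart on that scale, with 59 TPM of Bgn for each 100 of Col1a1 against 21 to 33.7 elsewhere. Dcn for each 100 of Col1a1 was lowest in vehicle at day 21 (2.62 TPM) and highest with the combination (8.37).

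Some fibroblast identity genes differed at day 21 as Dcn and Ogn did, and others did not; Dpt and Clec3b were chosen after their values were seen. Dpt, which encodes the decorin-binding protein dermatopontin, was at 44.5 TPM in vehicle at day 21, 91.9 with DC101, 144.9 with 4H2 and 240.5 with both antibodies. Clec3b, which encodes tetranectin, was at 9.2, 34.1, 62.5 and 131.6 TPM in those libraries. Both thus stood in the order in which Dcn and Ogn stood. Postn, the periostin gene and the fourth nearest to Aspn, was at 221.9, 138, 115.7 and 149.3 TPM, and Pdgfra, a receptor that marks fibroblasts, at 30.2, 27.5, 24.2 and 23.1 TPM. Col1a1, at 3874, 3124, 4306 and 4153 TPM, followed neither order.

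Other cell types differed between the same libraries. Skeletal muscle and adipocyte genes were high where Dcn and Ogn were high at day 21: the 10 adipocyte genes, none of them listed at 0, summed to 200.5 TPM in vehicle at day 21, 565.8 with DC101, 1063 with 4H2 and 1172 where both were given. The 12 epithelial genes, none listed at 0, summed to 8295, 5532, 51.6 and 430.4 TPM in those libraries, and to 4343, 1333 and 2213 in vehicle at day 3 and at days 3 and 14 of gefitinib. The 10 macrophage and monocyte genes, none listed at 0, summed to 2186 TPM in vehicle at day 3, where 7 of the 9 proteoglycan genes were lowest, to 19216 and 20265 at days 3 and 14 of gefitinib, and to between 8745 and 17181 at day 21. The 9 skin and hair genes, of which 0 to 5 were listed at 0 in a library, summed to 9.5 TPM in vehicle at day 3, 2 and 99 at days 3 and 14 of gefitinib, 6.8 in vehicle at day 21, 33 with DC101, 16.6 with 4H2 and 492.7 in the combination, where Dcn was highest. For the combination against 4H2 their median was 4.26 over 6 compared, beside -0.05 for muscle and 0.10 for adipocyte genes. Of 14 genes of tendon, cartilage and bone, where several of these proteoglycans are best known, between 1 and 5 were listed at 0 in a library and the summed level was between 284.7 and 567.2 TPM. Col2a1 did not exceed 0.1 TPM and Bglap was listed at 0 in all libraries but vehicle at day 21. The part of these cell types in the levels of the proteoglycan genes was not tested.

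**Figure D4:**
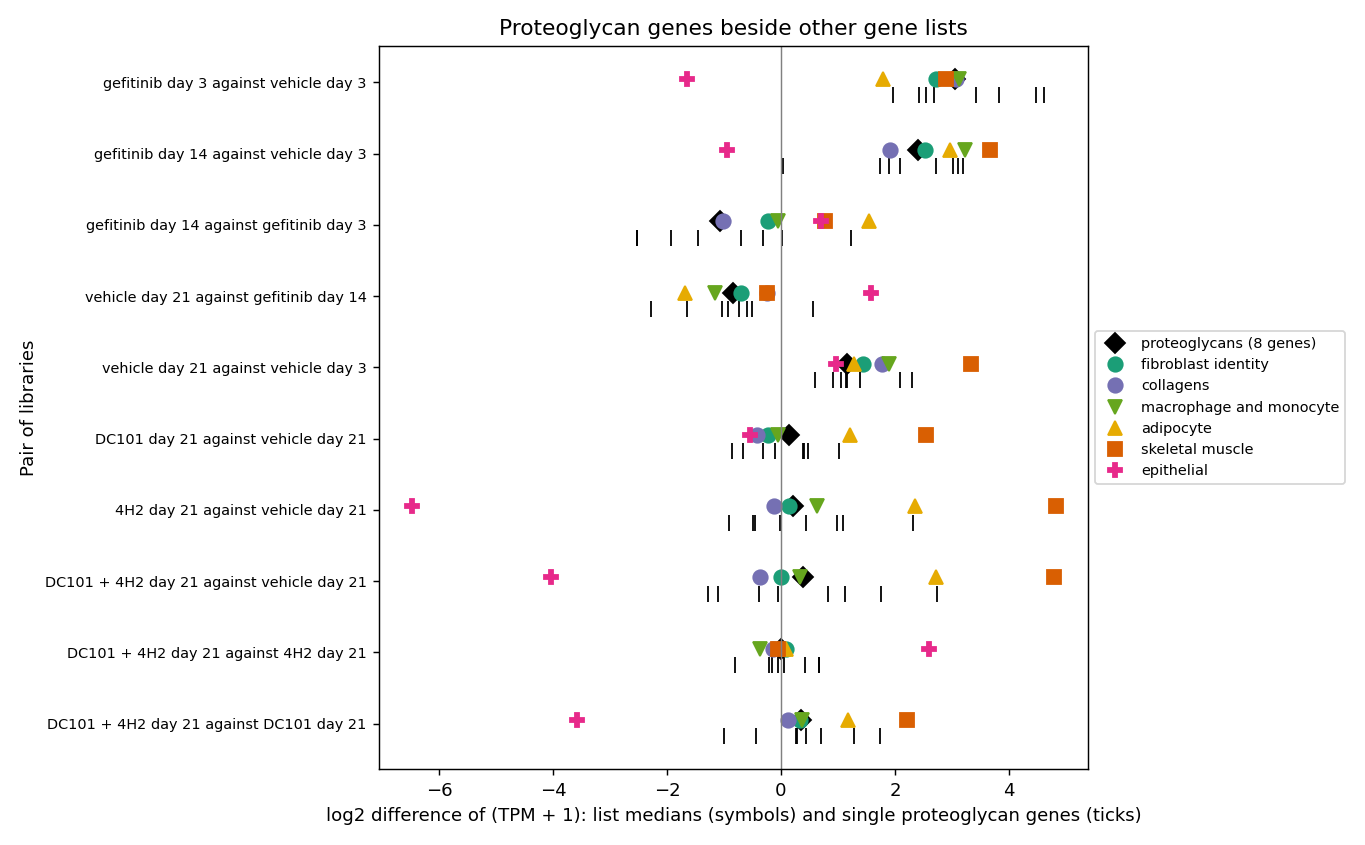
Log2 difference of (TPM + 1) (horizontal axis) in 10 pairs of libraries (rows): symbols are medians of gene lists and black ticks the 8 single proteoglycan genes. The proteoglycan median lies within 0.38 of the fibroblast median in every row but day 14 against day 3 of gefitinib (-1.07 against -0.23), while skeletal muscle reaches 4.82 and epithelial genes -6.48 with 4H2.

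The enzymes that build the sugar chains of these proteins had smaller median differences at days 3 and 14 of gefitinib than the proteoglycan genes. Of 22 genes of chondroitin and dermatan sulfate synthesis, 9 were at least 2-fold higher and none lower at day 3 of gefitinib against vehicle (median 0.59), and 10 and none at day 14 (0.70); 20.8% and 22.7% of all genes were higher in these pairs, and 14.4% and 12.7% lower. Dse, an epimerase that makes dermatan sulfate, was between 43.9 TPM with the combination and 89.1 TPM at day 3 of gefitinib. Of 8 compared genes of keratan sulfate synthesis, 5 were higher and 1 lower at day 3 (median 1.14), the lower one being B3gnt7 at 9.6 against 24.5 TPM. In the 3 antibody libraries against vehicle at day 21 the medians of both lists lay between -0.26 and 0.11.

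Proteases that cut these proteoglycans or their propeptides were also described. Of 12 compared, 7 were at least 2-fold higher and 1 lower at day 3 of gefitinib against vehicle (median 1.06), beside 20.8% and 14.4% of all genes. With 4H2 against vehicle at day 21 none was higher and 5 lower (median -0.74), beside 10.9% and 20% of all genes. Mmp14, a membrane-bound matrix metalloprotease, was at 104.6 TPM in vehicle at day 3, 777.9 and 686.1 at days 3 and 14 of gefitinib, 401.8 in vehicle at day 21, 308.2 with DC101, 452.9 with 4H2 and 317.9 with both antibodies. Bmp1, which removes the propeptides of biglycan and osteoglycin, was at 64.2, 131.6, 87, 94.1, 56.8, 37.9 and 46.9 TPM. Its 3 antibody libraries were the 3 lowest of the 7, unlike those of Dcn or Ogn.

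Receptors and growth factors known to bind members of the family stood on both sides. Of 19 compared, 11 were at least 2-fold higher and 4 lower at day 3 of gefitinib against vehicle, beside 20.8% and 14.4% of all genes, with the same counts at day 14, beside 22.7% and 12.7%. Against vehicle at day 21, 8 were lower and none higher in each of the 2 libraries given 4H2, where 20% (4H2) and 17% (combination) of all genes were lower, shares that depend on the scaling. Egfr was at 629.8 TPM in vehicle at day 3, between 438.7 and 537.8 in the next 4 libraries, 19.4 with 4H2 and 48.3 with the combination. The summed epithelial genes were also lowest in the 2 libraries given 4H2, at 51.6 and 430.4 TPM. Kdr lay between 7.5 TPM in vehicle at day 3 and 22.9 at day 3 of gefitinib, and at 9.3 TPM with the combination. Tlr2, a receptor of soluble biglycan, was at 5.7 TPM in vehicle at day 3, 45.5 and 60.9 at days 3 and 14 of gefitinib, and between 27.4 and 46.9 at day 21. Tgfb1 was lowest in vehicle at day 3 (137 TPM) and highest at day 3 of gefitinib (429.6), as were 5 of the 9 proteoglycan genes (Lum, Bgn, Ogn, Aspn and Podn).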

How the data were processed

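RNA was measured in 7 tumor libraries, 1 per group; per the labels' protocols it came from frozen tissue, was depleted of ribosomal RNA and was made into directional libraries. The authors deposited TPM values for 21892 symbols, rounded to 1 decimal and summing to 1000000 per library. Per the submitters' processing notes, the genome build was GRCm38.p6. The sources used here name no aligner, counting tool or annotation. Depth cannot be read from TPM, and a 0 is given only as listed.

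Samples were grouped by title. Differences are log2((TPM + 1) / (TPM + 1)) for genes with a mean of at least 1 TPM; the pseudocount makes those of low genes smaller than the TPM ratio. No test was possible with 1 library per group, and the 10 comparisons share libraries. The members and 18 further gene lists were chosen with earlier results of these data known. The text names the 9 members, up to 4 of the most abundant genes of a list, Egfr, Kdr and Pdgfra, the 5 nearest profiles, and cluster neighbours; B3gnt7, Tlr2, Col2a1, Bglap, Tcf21, Chad, Nyx, Nepn, Dpt, Clec3b, Vcan, Gpc3, Col12a1, Col14a1 and the overlapping genes fall outside that rule and were chosen after their values were seen. Positions and promoter windows are from RefSeq, overlaps from GENCODE M21. Alternatives: a pseudocount of 0.1 or of 5, all genes unfiltered, a minimum mean of 5 TPM, 2 rescalings (median of ratios, and leaving out muscle genes and the 20 most abundant genes), and means in place of medians. Functions were tested on simulated data. Python 3.11.15, pandas 2.3.3 and numpy 2.4.6 were used.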

Additional observations from a re-analysis of the deposited data

How the results depend on the processing

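Across the 7 alternatives chosen for the 10 pairs of libraries, the median of the proteoglycan genes and its distance from the fibroblast median moved by less than 1.5-fold in every pair. The numbers of genes past 2-fold moved by more in 4 instances. With a pseudocount of 5, 0 of 8 were higher with DC101 against vehicle at day 21 in place of 1, and 1 was lower with the combination against vehicle in place of 2, also 1 under median-of-ratios scaling. With a pseudocount of 0.1, 1 was lower in the combination against DC101 in place of 0. Of 480 single-gene differences recomputed, 8 moved by over 1.5-fold, 6 of them for Ogn or Podn against vehicle at day 3 and 1 for Ogn with the combination under a pseudocount of 5, and 1 for Ogn under a pseudocount of 0.1 (5.21 in place of 4.62 at day 3 of gefitinib). Podn and Ogn crossed 2-fold in the further pairs named with their values above. 5 changed sign, all within 0.24 of 0: Prelp with 4H2 and with the combination against vehicle under both rescalings, and Dcn at day 14 against day 3 of gefitinib under median-of-ratios scaling. Median-of-ratios scaling over 7340 reference genes moved the median of all genes from -0.21 to 0.02 with 4H2, from -0.17 to 0.05 with the combination, and from -0.09 to 0.09 for the combination against DC101; the rescaling without muscle and abundant genes moved it from 0.03 to 0.14 at day 14 of gefitinib against vehicle. The combination against 4H2 had a median of 0.01, which was -0.05 without the filter, -0.01 under median-of-ratios and -0.03 under the other rescaling. Depth is unknown, so no counting error can be given.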

Other observations

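Proteoglycans outside the family differed among themselves. Sdc1, the syndecan of epithelial cells, was at 684.8 TPM in vehicle at day 3, 397.9 and 493.3 at days 3 and 14 of gefitinib, 763.6 in vehicle at day 21, 611.6 with DC101, 32.3 with 4H2 and 65.8 under both antibodies. Sdc3 was at 63.1, 674.3, 526.6, 197.7, 201.3, 417.9 and 323.5 TPM in that order, lowest in vehicle at day 3 and highest at day 3 of gefitinib as were 5 of the 9 small leucine-rich genes, and Sdc4 at 579.8, 315.7, 285.2, 467.5, 472.1, 160 and 129.8. The large matrix proteoglycan gene Vcan was highest in vehicle at day 3 (124.3 TPM) and lowest with 4H2 (7.4), and the glypican gene Gpc3 was at 240 TPM in vehicle at day 3 against 15.4 to 102.7 elsewhere. Hspg2, which encodes the basement membrane proteoglycan perlecan, was at 100.6 TPM in vehicle at day 3 and between 173.2 and 350.5 in the others, with its highest value at day 14 of gefitinib, as for Prelp, whose product is known to bind it. Of 16 compared genes of this list, 6 were at least 2-fold higher and 2 lower at day 3 of gefitinib against vehicle, where 20.8% of all genes were higher and 14.4% lower. With 4H2 against vehicle at day 21, 2 were higher and 7 lower, where 10.9% and 20% of all genes were. Vcan and Gpc3 were chosen after their values were seen.

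Among the collagens, which these proteoglycans bind, Col14a1 was set apart from the rest. It was at 485.4 TPM in vehicle at day 3, where 7 of the 9 proteoglycan genes were lowest, and at 214.9, 104.7, 59.7, 125.2, 59.8 and 68.3 TPM in the other libraries in the order used above. Its product is a fibril-associated collagen known to bind decorin. Col12a1, its closest relative, was at 37.2, 223, 227, 258.2, 91.1, 38.3 and 15.2 TPM. 11 of the 12 compared collagen genes were at least 2-fold higher at day 3 of gefitinib than in vehicle, beside 20.8% of all genes. Col14a1 was the 1 that was lower, beside 14.4% of all genes. Col14a1 and Col12a1 were chosen after their values were seen.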
